A study of Arabidopsis thaliana with 9 samples.

Results

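The LNK genes of Arabidopsis thaliana, LNK1 (AT5G64170), LNK2 (AT3G54500), LNK3 (AT3G12320) and LNK4 (AT5G06980), encode coactivators of the circadian clock. These 4 genes were found by locus identifier among the 32833 genes of the count table, and all 4 were among the 19149 genes that could be tested. Their transcripts were measured by RNA sequencing in seedlings of 3 genotypes with 3 libraries each. Col-0 is the wild-type accession, and the labels name it for all 3 genotypes. The 35S:CO line expresses the flowering regulator CONSTANS (CO) from the viral 35S promoter, which is active in most cells. The SUC2:CO line, labelled SUC2:HA:CO (co-10), expresses CO with an HA tag from the promoter of SUC2, a sucrose transporter gene of phloem companion cells, and the label also names the co mutant allele co-10. Promoter and allele thus differ from Col-0 together in SUC2:CO and cannot be told apart. All plants stood in soil at 22 °C in long days, 16 h light and 8 h dark, and were taken 7 days after germination at zeitgeber time 14, so 14 h after lights on. A rise at this single time can be a higher level or a shift in the hour of the daily peak, and these cannot be told apart here. The labels do not say whether the 3 libraries of a genotype came from separate sowings, so p-values measure the spread between these libraries, which may be partly technical.

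LNK is short for night light-inducible and clock-regulated. LNK proteins carry no known DNA-binding domain. They are recruited to promoters by MYB-like factors of the REVEILLE (RVE) family, above all RVE8 and RVE4, and help these factors to switch on evening genes such as PRR5, TOC1 and ELF4. LNK1 and LNK2 transcripts peak in the morning in wild-type plants, and plants that lack both genes have a long-period clock and flower late in long days.

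The transgenes were seen in the counts. CO reached 576 to 676 CPM (counts divided by the scaled library total, times 1e+06) in the 35S:CO libraries, 48.6 to 60.3 in SUC2:CO and 7.96 to 10.1 in Col-0. Its target FT, the mobile flowering signal, lay at 92.8 to 149 CPM, 313 to 362 CPM and 1.59 to 2.62 CPM in the same order. Libraries held 25563118 to 26636174 counts, and no replicates held identical values. The leaf markers RBCS1A, LHCB1.3, LHCB2.1 and RCA summed to 52222 to 71932 CPM in every library. The 6 root markers summed to at most 0.591 CPM in any library, with the root hair expansins EXPA7 and EXPA18 at 0 throughout, although the labels say seedling. The 5 companion cell markers summed to 479 to 685 CPM in Col-0, 588 to 683 in 35S:CO and 659 to 743 in SUC2:CO. In bulk seedling RNA a change in the share of a cell type and a change in RNA per cell cannot be told apart.

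LNK1 lies at chr5:25672466-25676823 on the minus strand of TAIR10.1, with 8 exons once those of its 3 annotated mRNAs are merged. LNK2 lies at chr3:20175370-20179070 on the minus strand (6 merged exons, 8 mRNAs), LNK3 at chr3:3923515-3925502 on the plus strand (6, 3) and LNK4 at chr5:2167120-2169437 on the plus strand (5, 5). Counts per gene do not separate these mRNAs. The 250 bases before the annotated start of each gene are shown as the DNA nearest to the start of each member. They were read from the RefSeq copy of the genome, TAIR10.1, 5′ to 3′ on the strand of the gene. The windows lie at chr5:25676824-25677073 (minus strand) for LNK1, chr3:20179071-20179320 (minus strand) for LNK2, chr3:3923265-3923514 (plus strand) for LNK3 and chr5:2166870-2167119 (plus strand) for LNK4. Capitals mark every match, on either strand, to the motifs named in the next paragraph.
LNK1: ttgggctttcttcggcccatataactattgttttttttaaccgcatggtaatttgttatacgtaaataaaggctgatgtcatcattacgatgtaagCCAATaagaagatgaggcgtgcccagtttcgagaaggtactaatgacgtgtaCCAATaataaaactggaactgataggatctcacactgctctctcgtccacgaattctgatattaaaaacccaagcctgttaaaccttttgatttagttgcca
LNK2: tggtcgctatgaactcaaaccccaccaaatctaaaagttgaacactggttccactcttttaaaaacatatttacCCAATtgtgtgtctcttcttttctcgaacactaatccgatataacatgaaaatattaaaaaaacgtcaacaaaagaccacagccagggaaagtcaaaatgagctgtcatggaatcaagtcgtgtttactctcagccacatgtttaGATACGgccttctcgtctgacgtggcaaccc
LNK3: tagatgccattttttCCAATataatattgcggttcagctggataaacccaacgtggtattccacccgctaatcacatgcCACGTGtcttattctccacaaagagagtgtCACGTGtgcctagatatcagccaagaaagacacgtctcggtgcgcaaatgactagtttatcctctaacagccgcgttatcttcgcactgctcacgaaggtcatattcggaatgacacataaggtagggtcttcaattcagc
LNK4: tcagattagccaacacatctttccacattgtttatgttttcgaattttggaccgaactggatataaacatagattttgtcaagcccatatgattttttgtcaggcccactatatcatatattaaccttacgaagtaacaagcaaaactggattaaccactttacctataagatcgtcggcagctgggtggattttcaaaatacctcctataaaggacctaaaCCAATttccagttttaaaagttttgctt

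The motifs searched were the evening element AAAATATCT bound by RVE8, CCA1 and LHY, the CCA1-binding site AAAAATCT, the G-box CACGTG, both forms of the LUX-binding site, GATACG and GATTCG, the CO-responsive element TGTGNNATG (also with 1 more N), and the CCAAT box. LNK3 held 2 G-boxes, starting 171 and 141 bases before the gene, and none of the other members held any. G-boxes are present in 6.49% of the 27443 windows of this length before protein-coding genes. LNK2 held the A form of the LUX site, GATACG, 31 bases before the gene, a motif found in 4.59% of windows. Every member held a CCAAT box, as did 46% of windows, and LNK1 held 2 of them. No window held the evening element (2.36% of all windows), the CCA1-binding site (6.69%), the T form of the LUX site (7.88%) or the CO-responsive element with a spacer of 2 bases (3.34%) or of 3 (3.9%). These are matches of letters within 250 bases, and the data hold no binding measurements.

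In wild-type seedlings at this hour LNK1 and LNK2 made up nearly all LNK transcript. Per kb of annotated exon, the Col-0 level was 3.05 ± 0.637 CPM for LNK1, 1.80 ± 0.324 for LNK2, 0.194 ± 0.0666 for LNK4 and 0.140 ± 0.0840 for LNK3 (SD, n = 3 each). LNK1 lay above LNK2 in every library when length is counted in, and both lay far above the other pair. LNK3 and LNK4 overlapped in Col-0, so their order there is not set. LNK1 supplied 58.5% of the summed length-adjusted LNK level in Col-0 and LNK2 35.0%. None of the members was an abundant transcript: 31.2% of tested genes had a lower length-adjusted mean than LNK1 in Col-0, against 21.6% for LNK2, 1.9% for LNK4 and 1.08% for LNK3.

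The order LNK1, LNK2, then the other pair held in both CO lines, and the total was higher in both. The summed length-adjusted level was 9.85 ± 0.648 CPM per kb in 35S:CO and 12.9 ± 1.40 in SUC2:CO, beside 5.19 ± 0.339 in wild type (SD, n = 3 each). The make-up of that total differed little for LNK1, which supplied 61.5% in 35S:CO and 59.3% in SUC2:CO. The LNK4 share was 3.74% ± 1.28 in Col-0, 2.67% ± 0.197 in SUC2:CO and 6.69% ± 1.75 in 35S:CO (SD, n = 3 each). In 35S:CO, LNK4 at 0.427 to 0.803 CPM per kb stood clear of LNK3 at 0.266 to 0.311. In SUC2:CO they overlapped again, at 0.327 to 0.352 for LNK4 and 0.294 to 0.395 for LNK3.

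**Figure D1:**
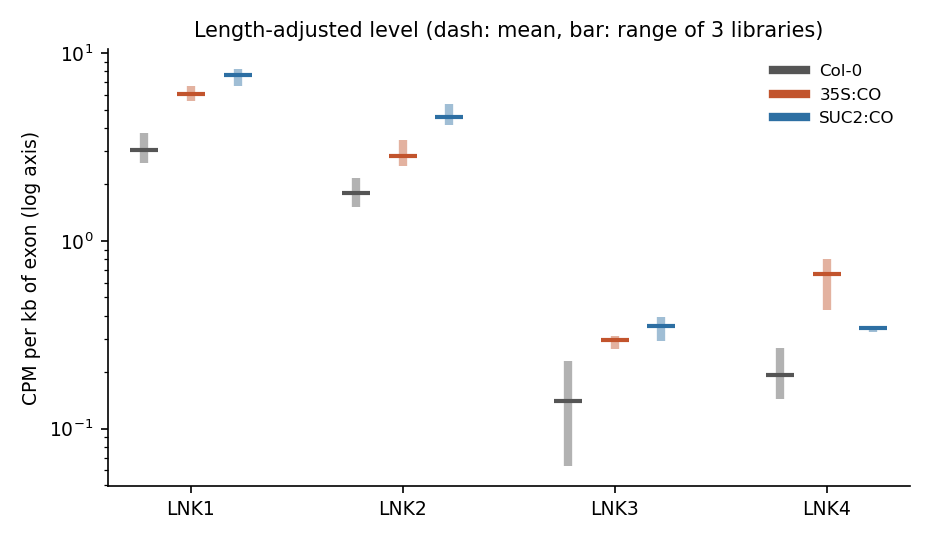
Length-adjusted level of the 4 LNK genes in CPM per kb of exon on a log axis, by genotype; dashes are means of 3 libraries and bars their full range. LNK1 and LNK2 lie above 1.5 in every library, and LNK3 and LNK4 never reach 1, with LNK4 in 35S:CO (0.427 to 0.803) standing above the other values of that pair.

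Against Col-0, LNK1 and LNK2 were higher in both CO lines, LNK4 was higher in 35S:CO, and LNK3 passed the test in neither line. In 35S:CO 3 of the 4 members were called higher (edgeR quasi-likelihood test, adjusted p under 0.05 over all 19149 genes), where 6.32% of all tested genes were. In SUC2:CO 2 of the 4 were, where 15.5% of all tested genes were called higher. The median log2 change of the 4 members was 1.03 in 35S:CO and 1.32 in SUC2:CO, beside -0.04 and -0.02 for all tested genes. In each line every library lay above every Col-0 library for each of the 4 genes, a pattern shown by 12.5% of tested genes in 35S:CO and 23.8% in SUC2:CO. Both comparisons use the same 3 Col-0 libraries, so their likeness is partly built in. LNK3 and LNK4 entered the test mainly through the CO lines, since each of them reached 10 counts in only 1 Col-0 library, which makes the count over members a description.

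**Figure D2:**
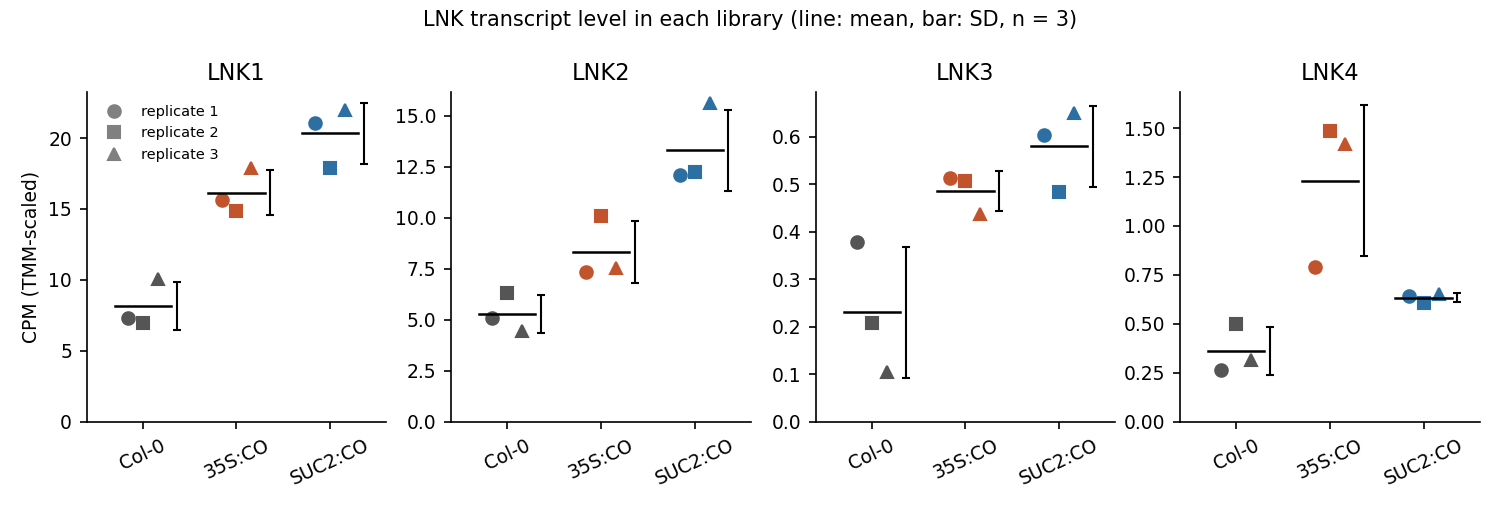
TMM-scaled CPM of each LNK gene in the 9 libraries, with a panel and a linear axis from 0 per gene; symbols are replicates, lines the mean and bars the SD of 3 libraries. No Col-0 point reaches a point of either CO line in any panel. LNK2 is highest in SUC2:CO (12.1 to 15.6 CPM), and LNK4 is highest in 35S:CO (0.789 to 1.48 CPM).

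LNK1, which with LNK2 carries most of the family's known role in clock and flowering, measured 7.34, 6.97 and 10.1 CPM in Col-0 replicates 1, 2 and 3. It measured 15.7, 14.8 and 17.9 CPM in 35S:CO, and 21.1, 17.9 and 22.0 CPM in SUC2:CO, again by replicate. The lowest CO-line library thus stood well above the highest wild-type library, Col-0 replicate 3. In 35S:CO the rise was 0.99 ± 0.15 on the log2 scale (SE, 1.98-fold, edgeR adjusted p 0.0024), and 4.91% of tested genes had a larger log2 change. In SUC2:CO it was 1.32 ± 0.15 (SE, 2.49-fold, edgeR adjusted p 0.00045), with 2.84% of genes above it. The lines themselves differed by -0.33 ± 0.15 (35S:CO minus SUC2:CO, SE, edgeR adjusted p 0.15). The 95% interval of that difference, -0.66 to -0.0039, leaves room for a level in 35S:CO anywhere from nearly equal to 0.632 of that in SUC2:CO. Both rises against Col-0 were called in all 9 fits that left out 1 library and in all 9 other settings tried.

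LNK2, the closest partner of LNK1 in function, measured 5.07, 6.31 and 4.45 CPM in Col-0 replicates 1, 2 and 3. Its 35S:CO values were 7.33, 10.1 and 7.55 CPM, and its SUC2:CO values 12.1, 12.2 and 15.6 CPM. The 3 genotypes formed separate steps with no overlap, Col-0 lowest and SUC2:CO highest. The rise in SUC2:CO was 1.34 ± 0.18 on the log2 scale (SE, 2.53-fold, edgeR adjusted p 0.00076), close in size to that of LNK1. In 35S:CO it was 0.66 ± 0.18 (SE, 1.58-fold, edgeR adjusted p 0.043).

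The LNK2 call in 35S:CO sat near the threshold. It was lost without 35S:CO replicate 2 (log2 change 0.54, edgeR adjusted p 0.13), 35S:CO replicate 3 (0.73, 0.052), Col-0 replicate 1 (0.63, 0.12) or Col-0 replicate 3 (0.55, 0.11). It was also lost without SUC2:CO replicate 1 (0.66, edgeR adjusted p 0.06) or SUC2:CO replicate 2 (0.69, 0.054), libraries that enter this contrast only through the shared estimate of spread. The rise of LNK2 in SUC2:CO was called in each of those fits.

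LNK2 was the only member whose difference between the lines passed the test. LNK4 had a larger estimate in the other direction, which did not pass. The LNK2 log2 difference, 35S:CO minus SUC2:CO, was -0.68 ± 0.18 (SE, 0.625 of the SUC2:CO level, edgeR adjusted p 0.025). CO mRNA had the opposite order, higher in 35S:CO. Between the lines 18.8% of all tested genes were called and 9.5% were called lower in 35S:CO, as was 1 of the 4 members. The call was lost without 35S:CO replicate 1 (-0.56, edgeR adjusted p 0.1), 35S:CO replicate 3 (-0.61, 0.081), SUC2:CO replicate 2 (-0.70, 0.056) or SUC2:CO replicate 3 (-0.51, 0.13).

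**Figure D3:**
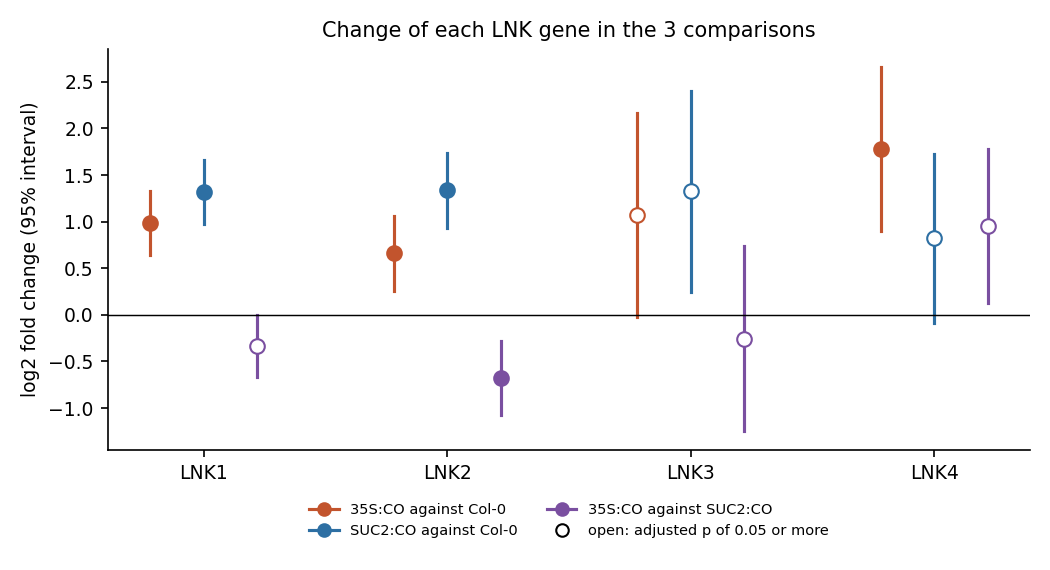
Log2 fold change of each LNK gene with its 95% interval in the comparisons of 35S:CO with Col-0, SUC2:CO with Col-0 and 35S:CO with SUC2:CO; open points have an adjusted p of 0.05 or more. All 8 changes against Col-0 are above 0, from 0.66 for LNK2 in 35S:CO to 1.78 for LNK4 in 35S:CO, and the intervals of LNK3 and LNK4 are the widest.

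LNK4, with LNK3 the less studied pair of the family, was counted 7, 12 and 9 times in Col-0 replicates 1, 2 and 3. It was counted 20, 38 and 39 times in 35S:CO and 17, 15 and 17 times in SUC2:CO. Its mean was 0.359 ± 0.123 CPM in Col-0, 0.633 ± 0.0240 in SUC2:CO and 1.23 ± 0.385 in 35S:CO (SD, n = 3 each). The libraries of 35S:CO were all above those of SUC2:CO, but replicate 1 was much nearer to them than the others. The rise in 35S:CO was 1.78 ± 0.40 on the log2 scale (SE, 3.43-fold, 95% interval 1.87- to 6.30-fold, edgeR adjusted p 0.017). This is the largest estimate in the family, and 2.04% of tested genes had a larger log2 change. It lost its call without 35S:CO replicate 2 (1.67, edgeR adjusted p 0.07), 35S:CO replicate 3 (1.66, 0.051), Col-0 replicate 1 (1.60, 0.07) or Col-0 replicate 3 (1.69, 0.051).

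In SUC2:CO the LNK4 estimate was 0.82 ± 0.41 on the log2 scale (SE, 95% interval -0.09 to 1.73, edgeR adjusted p 0.15), which does not pass the test although no libraries overlapped. The direct comparison of the lines gave 0.96 ± 0.37 (35S:CO minus SUC2:CO, SE, 95% interval 0.13 to 1.78, edgeR adjusted p 0.1). LNK4 was thus called against Col-0 in 1 line, and the difference between the lines did not pass the test.

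LNK3 was the rarest member. Its counts were 10, 5 and 3 in Col-0 replicates 1, 2 and 3, 13, 13 and 12 in 35S:CO, and 16, 12 and 17 in SUC2:CO. Every CO-line library was above every Col-0 library, but by as little as 2 counts. The estimates were 1.07 ± 0.49 on the log2 scale in 35S:CO (SE, 95% interval -0.02 to 2.17, edgeR adjusted p 0.2) and 1.33 ± 0.49 in SUC2:CO (SE, 95% interval 0.25 to 2.41, edgeR adjusted p 0.06). These estimates are as large as those of LNK1, and the intervals run from about no change to a rise of 4.49-fold in 35S:CO and from 1.19-fold to 5.30-fold in SUC2:CO. The lines differed by -0.26 ± 0.45 (SE, 95% interval -1.25 to 0.74, edgeR adjusted p 0.73). In SUC2:CO the threshold was passed without Col-0 replicate 1 (1.89, edgeR adjusted p 0.039) and with limma-voom (1.44, limma adjusted p 0.048).

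Counting error limits LNK3 and LNK4 far more than LNK1 and LNK2. The 3 Col-0 libraries held 18 counts of LNK3 in all, with an exact 95% Poisson interval of 10.7 to 28.4, and 28 counts of LNK4, with an interval of 18.6 to 40.5. In 35S:CO the sums were 38 (26.9 to 52.2) for LNK3 and 97 (78.7 to 118) for LNK4, and in SUC2:CO 45 (32.8 to 60.2) and 49 (36.3 to 64.8). For both genes the Col-0 interval overlaps at most slightly with those of the CO lines. These intervals cover counting alone and treat each read as a separate count, although reads carried no stated molecular identifiers. For LNK1 the spread between Col-0 libraries was 20.9% of the mean where counting alone gives 6.78%, so spread between libraries outweighs counting there. For LNK4 in SUC2:CO the spread was 3.79% where counting alone gives 24.7%, so the close agreement of these 3 libraries says little about their true spread.

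Ratios within a library do not depend on how libraries are scaled. LNK4 counts were 5.04%, 10% and 7.94% of LNK1 counts in 35S:CO replicates 1, 2 and 3, against 3.05%, 3.38% and 2.96% in SUC2:CO. The 2 lines did not overlap in this ratio. The difference in mean log2 ratio was 1.24, with an exact two-sided permutation p of 0.1, the smallest that 3 libraries against 3 can give. Col-0, at 3.61%, 7.14% and 3.10%, overlapped 35S:CO and SUC2:CO alike. LNK2 counts ran from 44.1% to 90.5% of LNK1 counts in Col-0, from 42.2% to 67.9% in 35S:CO and from 57.3% to 71.1% in SUC2:CO, with overlap in every pair. LNK3 counts ran from 1.03% to 5.15% of LNK1 counts in Col-0, and the ranges of both CO lines lay inside that range. The permutation p-values of the other 8 of these 9 comparisons ran from 0.2 to 1.

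Reads of neighbouring genes could enter the LNK counts, since the use of strand in counting is not given in the sources used here. LNK1 shares 245 exon bases at its 3′ end with AT5G64160 on the other strand, which measured 14.3 CPM in Col-0, 12.3 in 35S:CO and 10.6 in SUC2:CO, opposite in order to LNK1. LNK2 shares 93 exon bases with AT3G54490, which had at most 7 counts in any library, and 44 with the antisense RNA AT3G08405, listed at 0 in all 9 libraries. LNK3 shares 5 bases with AT3G12340, which was lower in SUC2:CO than in Col-0 (log2 change -1.12, edgeR adjusted p 0.0041), the direction opposite to LNK3. LNK4 shares 13 bases with AT5G06990, which had at most 3 counts in any library. Beside LNK1, AT5G64180 starts 248 bases away on the other strand, so it shares the printed window of LNK1. It rose in SUC2:CO by 0.59 on the log2 scale (edgeR adjusted p 0.037, libraries overlapping), and in 35S:CO its change was 0.08 (edgeR adjusted p 0.83).

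Several genes of proteins that bind LNK proteins were higher too, 6 of 8 in 35S:CO and 4 of 8 in SUC2:CO. This list and the gene lists below were chosen with earlier results of these data known, so their counts are descriptions. In 35S:CO 6 of 8 listed partners were called, all higher, with a list median log2 change of 1.3. Of all tested genes 11.8% were called in either direction and 6.32% were called higher. RVE8, the main partner, measured 11.6, 12.9 and 14.5 CPM in 35S:CO, 1.85, 2.50 and 1.95 in SUC2:CO and 0.870, 1.12 and 1.32 in Col-0. RVE3, a close relative of RVE8, measured 14.6 CPM in 35S:CO, 0.908 in SUC2:CO and 0.351 in Col-0 on average. It rose by 5.39 ± 0.36 (SE, edgeR adjusted p 7.3e-06) and 1.39 ± 0.41 (SE, edgeR adjusted p 0.028) on the log2 scale. RVE6 (0.85) and RVE5 (0.54) rose in 35S:CO too, as did the morning repressors LHY (4.21) and CCA1 (1.75), which can also bind LNK proteins. RVE4 did not pass in either line (log2 change -0.09 in 35S:CO and 0.20 in SUC2:CO). Nor did MYB3, a repressor of phenylpropanoid genes that works with LNK1 and LNK2 (0.15 and -0.72).

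In SUC2:CO 4 of the 8 partners were called, RVE8 (0.92), RVE3 (1.39), CCA1 (1.27) and LHY (2.25), all higher, with a list median of 0.58. Of all tested genes 32.3% were called there and 15.5% were called higher. Between the lines RVE8 (2.63), RVE3 (4.01), LHY (1.97) and RVE6 (0.61) were higher in 35S:CO, the line in which LNK2 was lower. In that comparison 9.27% of all tested genes were called higher.

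**Figure D4:**
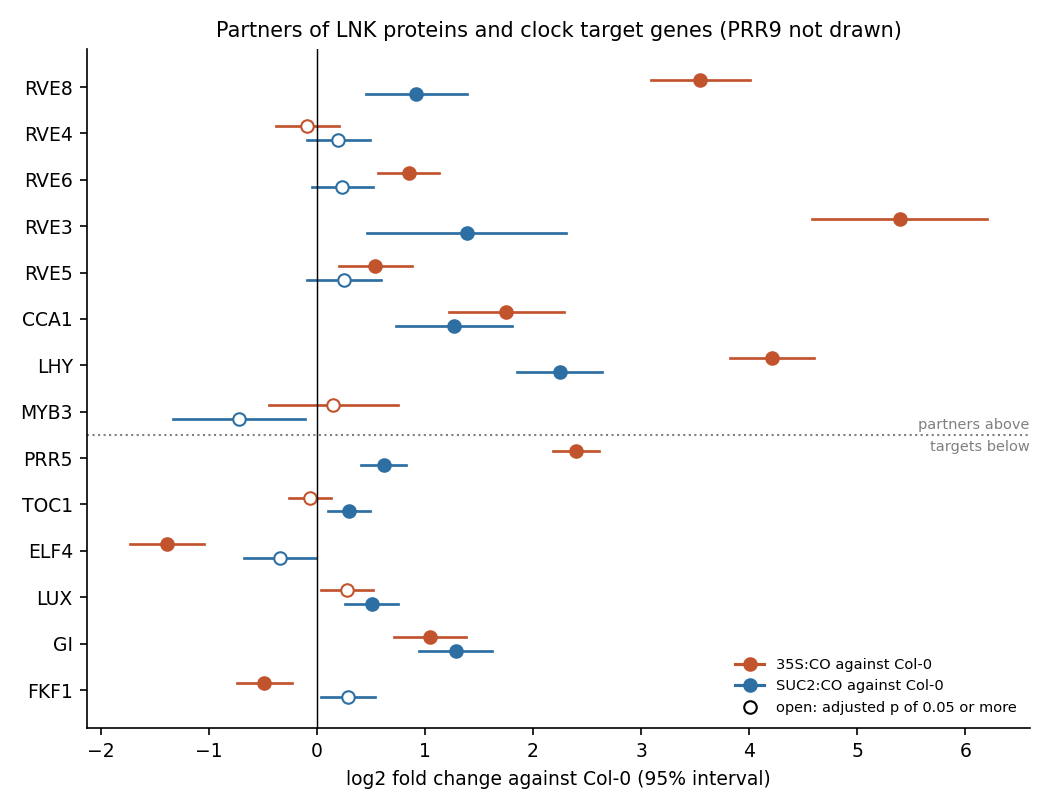
Log2 fold change against Col-0 with 95% interval for the 8 listed partners of LNK proteins (above the dotted line) and 6 of the 7 listed target genes (below it); open points have an adjusted p of 0.05 or more. RVE3 (5.39), LHY (4.21), RVE8 (3.55) and PRR5 (2.40) are far to the right in 35S:CO, whereas ELF4 (-1.39) and FKF1 (-0.48) are to the left. PRR9 is not drawn, since its Col-0 libraries held 0, 0 and 3 counts.

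Genes that RVE8 and LNK proteins are known to activate did not all change in the same direction. In 35S:CO 5 of 7 were called, 3 higher and 2 lower, with a median log2 change of 0.28, where 11.8% of all tested genes were called and 6.32% were called higher. PRR5, a pseudo-response regulator that represses morning genes, measured 76.1, 82.4 and 73.1 CPM in 35S:CO against 15.4, 14.1 and 14.4 in Col-0 (log2 change 2.40, edgeR adjusted p 2.6e-07). ELF4, a subunit of the evening complex, went the other way, at 10.7, 12.6 and 15.2 CPM in 35S:CO against 29.4, 37.4 and 34.0 in Col-0 (log2 change -1.39, edgeR adjusted p 0.00024). FKF1, a blue-light receptor that stabilises CO, also fell (-0.48), GI rose (1.05), and TOC1 (-0.07) and LUX (0.28) did not pass. For PRR9, a morning-phased regulator, the Col-0 libraries held 0, 0 and 3 counts, those of 35S:CO 9, 15 and 23 and those of SUC2:CO 21, 25 and 32. No Col-0 library reached the minimum count of 10, so PRR9 entered the test only through the CO lines. It was called higher in both lines, and its part in the counts of called targets is a description. Fitted on the compared genotypes alone, 3 of the 7 were called in 35S:CO.

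In SUC2:CO 5 of the 7 targets were called and all were higher, with a median of 0.51, where 32.3% of all tested genes were called and 15.5% were called higher. They were PRR5 (0.62), TOC1 (0.30), LUX (0.51), GI (1.28) and PRR9, the last of which entered the test only through the CO lines. ELF4 (-0.34) and FKF1 (0.29) did not pass. Between the lines 4 of the 7 were called, beside 18.8% of all tested genes. PRR5 was higher in 35S:CO (1.78), and TOC1 (-0.37), ELF4 (-1.05) and FKF1 (-0.78) were lower there.

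Among 16 other clock genes, 3 were called in 35S:CO, PRR7 (1.19) and RVE1 (2.50) higher and JMJD5 (-0.41) lower, at a median log2 change of 0.02, where 11.8% of all tested genes were called. In SUC2:CO 8 were called, all higher, at a median of 0.36, where 15.5% of all tested genes were called higher. These were RVE1 (1.41), PRR7 (0.98), BOA (0.86), PRR3 (0.77), LKP2 (0.41), TIC (0.41), COR27 (0.38) and JMJD5 (0.34). The SUC2:CO count was 4 without Col-0 replicate 1 or SUC2:CO replicate 3, and 5 without Col-0 replicate 3 or SUC2:CO replicate 2. Between the lines 7 were called, beside 18.8% of all tested genes, of which RVE1 (1.09) was higher in 35S:CO and PRR3 (-0.61), BOA (-0.62), TIC (-0.36), COR27 (-0.76), LWD2 (-0.39) and JMJD5 (-0.75) were lower. That count was 4 without 35S:CO replicate 3 and 3 without SUC2:CO replicate 2 or SUC2:CO replicate 3.

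LNK1 and LNK2 also act on phenylpropanoid and anthocyanin genes, through MYB3 and RVE8, so 8 genes of that pathway were read beside them. In SUC2:CO all 8 fell, at a median log2 change of -2.41, where 16.8% of all tested genes were called lower. DFR, the reductase that commits the pathway to anthocyanin, measured 1.21, 4.72 and 0.536 CPM in SUC2:CO against 130, 18.1 and 43.3 in Col-0. Col-0 itself spread widely, with replicate 1 highest, yet stayed above every SUC2:CO library. LDOX (-4.57), UF3GT (-4.14), CHS (-2.48), PAP1 (-2.34), F3H (-2.15), CHI (-1.19) and C4H (-1.03) fell as well. The count was 5 without SUC2:CO replicate 3.

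In 35S:CO only C4H, the second enzyme of the phenylpropanoid pathway and a known MYB3 target, was called (1.09, edgeR adjusted p 0.0033), at a list median of 0.81. The reported fit has no term for the replicate number. This 1 of 8 is near the 11.8% of all tested genes called in that comparison. With the replicate number as a block in a fit of these 2 genotypes alone, 6 of the 8 were called. In the other 8 processing settings, the block over all 9 libraries among them, the count stayed at 1. By number, DFR measured 259, 98.2 and 127 CPM in 35S:CO and 130, 18.1 and 43.3 in Col-0. PAP1 measured 23.7, 14.3 and 6.78 CPM against 26.7, 7.31 and 5.77. Same-numbered libraries of these genotypes deviated together. The fit with 6 calls differs from the reported fit both in the block and in the libraries it holds. Which of these moved the count was not tested. Without Col-0 replicate 1 the count was 2. Between the lines all 8 were higher in 35S:CO, where 9.27% of all tested genes were.

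The genes whose profile over the 9 libraries lay nearest to each called member were found by root mean square distance, on the log2 scale, after setting each gene to its Col-0 mean. Nearest to LNK1 were ENGase85B (0.159), AT4G26490 (0.181), GI (0.183), AT4G22758 (0.189) and AT3G15300 (0.204). GI, a clock protein that promotes CO transcription, belongs to the target list. Nearest to LNK2 were EULS3 (0.157), AT5G17650 (0.163), AT5G59130 (0.164), ERD1 (0.186) and CYP71B2 (0.188), none of them in the clock lists. Nearest to LNK4 were AT5G58120 (0.217), AT4G23000 (0.233), AT3G05327 (0.237), AT2G19650 (0.254) and AT1G10340 (0.265). The members were not each other's nearest genes: LNK2 was number 122 from LNK1 at 0.368, and LNK4 number 1271 at 0.632. With 9 libraries in 3 groups such a distance mostly reads the 2 mean changes, and it is given as a description.

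Some cell type markers were called too. Of all tested genes 11.8% were called in 35S:CO, 32.3% in SUC2:CO and 18.8% between the lines. Of the 4 leaf markers LHCB2.1 was called, higher in 35S:CO (2.68) and SUC2:CO (1.5), and the other 3 in neither line. Of the 5 companion cell markers AHA3 was higher in 35S:CO (0.56) and SUC2:CO (0.66), PP2-A1 was higher in SUC2:CO (0.64), and SUC2 itself was lower in both (-0.49 and -0.95). Between the lines, where LNK2 was lower in 35S:CO, FTIP1 (-0.53) and PP2-A1 (-0.54) were lower there too, and SUC2 (0.47) and LHCB2.1 (1.18) were higher. Whether a change in companion cell RNA has a part in the LNK changes was not tested.

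**Figure D5:**
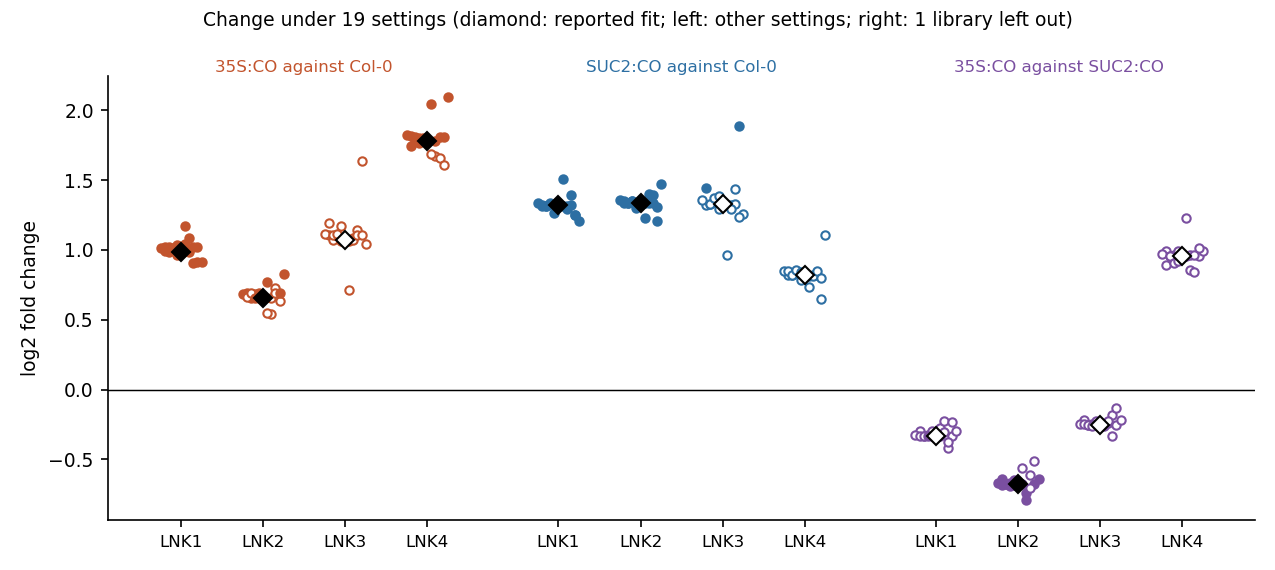
Log2 fold change of each LNK gene in each comparison under the reported fit (diamond), 9 other settings (left of it) and 9 fits without 1 library (right of it); open symbols have an adjusted p of 0.05 or more. No value changes sign. LNK1 and LNK2 in SUC2:CO and LNK1 in 35S:CO are filled throughout, and LNK2 and LNK4 in 35S:CO and LNK2 between the lines turn open in some fits.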

How the data were processed

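Per the labels' protocols, total RNA came from the RNeasy Plant Mini Kit, and strand-specific sequencing was done at BGI Hong Kong. The submitters' processing notes name FastQC, STAR, featureCounts, limma and the build TAIR10, with no version, role or order. The deposited table holds counts, whole reads per gene that the authors did not normalize, judged from the values. Annotation and use of strand are not given in the sources used here.

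Tests used edgeR 4.0.16 (R 4.3.3). The filterByExpr step (minimum count 10) set the tested genes, TMM factors (trimmed mean of M values) scaled the library totals, and a quasi-likelihood model with a term per genotype was fitted to all 9 libraries. Two-sided F-tests gave p-values, adjusted by Benjamini-Hochberg over all 19149 tested genes. CPM is the count divided by the TMM-scaled total, times 1e+06. Alternatives were DESeq2 1.42.0, limma-voom (limma 3.58.1), other filters and scalings, fits of the compared genotypes alone, the replicate block and leaving out each library. The fits were also run on simulated data, with outcomes not reported here. Changes were set there only in genes with mean counts above those of LNK3 and LNK4. Of the table's identifiers 32548 matched TAIR10.1, which gave exon lengths, neighbours and sequences.

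Same-numbered 35S:CO and Col-0 libraries deviated together (correlations across genes 0.425, 0.258 and 0.214 for numbers 1, 2 and 3), and unlike numbers did not (-0.259 to -0.0409). The numbers thus appear to pair these genotypes. No such likeness was seen for SUC2:CO with Col-0 (0.0938, 0.0426, -0.101) or the lines (-0.046, 0.0509, -0.0986). Unlike numbers reached 0.189 and 0.207 there, so with 3 libraries per genotype the evidence is weak. The pairing comes from the data, not from the labels. The members and lists were chosen with earlier results of these data known. Named genes are the members, CO and FT, list genes called in a comparison, direct neighbours, and the 5 nearest profiles of each called member; marker genes and list genes that did not pass are named to account for their lists.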

Additional observations from a re-analysis of the deposited data

Results flagged for a closer look

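LNK2 differed between the lines by the direct test, at -0.678 on the log2 scale (35S:CO minus SUC2:CO, edgeR adjusted p 0.025), with every 35S:CO library below every SUC2:CO library. That call was lost in 4 of the 9 fits that left out 1 library, and the ratio of LNK2 to LNK1 overlapped between the lines. JMJD5, a clock-linked demethylase gene, differed by -0.751 (edgeR adjusted p 0.00063), and was called lower in 35S:CO and higher in SUC2:CO against the same Col-0 libraries. C4H, a target of MYB3, differed by 2.12 (edgeR adjusted p 5.8e-05), and was called higher in 35S:CO and lower in SUC2:CO. SUC2:CO carries the co-10 mutation and a different promoter, so promoter, CO level and background cannot be told apart.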

How the results depend on the processing

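No member changed direction in any of the 9 fits without 1 library or the 9 other settings. Over all members and comparisons these gave 216 results, of which 197 kept the call. Outside the fits that left out a library, LNK2 in 35S:CO against Col-0 lost its call with limma-voom (0.67, limma adjusted p 0.053) and in the fit of the compared genotypes alone (0.69, edgeR adjusted p 0.079). LNK3 in SUC2:CO against Col-0 gained one with limma-voom (1.44, limma adjusted p 0.048), and LNK1 between the lines with the replicate block (-0.33, edgeR adjusted p 0.047). Same-numbered libraries of those lines did not deviate together. The replicate block changed no other call of a member.

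In the fit of the compared genotypes alone 1260 genes were called in 35S:CO against Col-0 (2261 in all 9 libraries) and 3 target genes (5). The replicate block in that fit gave 6 anthocyanin genes in 35S:CO (1), 2 partners in SUC2:CO (4) and 4 other clock genes between the lines (7). These fits hold fewer libraries, and the latter also adds a term for the replicate number. Which of these moved the counts was not tested.

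Without 1 library, LNK2 ran from 0.54 to 0.83 in 35S:CO and from -0.79 to -0.51 between the lines, LNK4 from 1.60 to 2.1 in 35S:CO, and LNK3 from 0.71 to 1.63 in 35S:CO, where it was called in none of these fits, and from 0.96 to 1.89 in SUC2:CO. Genes called ran from 1159 to 2167 in 35S:CO, from 3572 to 6615 in SUC2:CO and from 1584 to 4110 between the lines. The counts moved by over 1.5 times without 35S:CO replicate 2 (1159) or Col-0 replicate 1 (1373) in 35S:CO, without Col-0 replicate 1 (3954) or SUC2:CO replicate 3 (3572) in SUC2:CO, and between the lines without 35S:CO replicate 1 (2076) or 3 (2355) or SUC2:CO replicate 2 (2029) or 3 (1584). Other clock genes called ran from 4 to 10 in SUC2:CO and from 3 to 7 between the lines. Anthocyanin genes ran from 1 to 2 in 35S:CO and from 5 to 8 in SUC2:CO.

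The depth limits LNK3 and LNK4, whose counts stayed between 3 and 39 in a library.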
